A study of Mus musculus with 6 samples.

Results

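Glucose and lactate cross cell membranes on 2 families of carriers, and the messages described here are those of Slc2a1, Slc2a8, Slc16a1, Slc16a3 and Bsg, picked out by gene symbol among the 23399 genes of the count table. The set was drawn up with 6 symbols, of which 5 were found; Slc2a3 was not analysed here. The members were chosen with the palmitate and vehicle values of these same libraries known, so their differences between the groups are given as a description, with no test. The RNA, selected by its poly(A) tail, came from CMT93 cells, a mouse colorectal cancer line in long use, labelled as wild type and grown as spheroids on soft agar with a little Matrigel in medium with fetal bovine serum. In the palmitate group, 3 samples received 200 µM sodium palmitate bound to bovine serum albumin and carried in ethanol. In the vehicle group, 3 samples received ethanol and albumin alone, so both groups were exposed to ethanol and albumin. Each exposure lasted 1 week in monolayer and then 5 days as spheroids. All samples come from 1 cell line. The labels do not say whether the numbered samples were grown separately, and p-values therefore reflect library-to-library spread that may be technical only.

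The Slc2a family (GLUT proteins) lets glucose and related sugars diffuse down their gradient. Slc2a1 encodes GLUT1, the carrier for basal glucose uptake in many proliferating cells, and Slc2a8 encodes GLUT8, which sits largely on internal membranes. The Slc16a family (monocarboxylate transporters, MCTs) includes carriers that move lactate, pyruvate and ketone bodies together with a proton: Slc16a1 encodes MCT1, which works in both directions, and Slc16a3 encodes MCT4, associated with lactate export from glycolytic cells. Bsg encodes basigin (CD147), a single-pass glycoprotein that escorts both of these MCTs to the plasma membrane and keeps them there. In gut epithelium MCT1 is also known for taking up short-chain fatty acids such as butyrate, and Slc16a3 and Slc2a1 are known targets of the hypoxia-inducible factor.

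Palmitate spheroids held about double the Slc16a3 message of vehicle spheroids, with slightly more Slc16a1, slightly less Slc2a1 and Bsg, and a Slc2a8 level whose groups overlapped. Library totals were 22.5 to 22.9 M counts with palmitate and 18.9 to 21.9 M with vehicle, so every palmitate library was deeper; the levels below are counts scaled to library size with TMM factors (CPM). Of the colorectal epithelium markers, 10 of 12 reached 1 CPM, and Epcam, Cdh1, Krt8, Krt18 and Krt19 were abundant, whereas Krt20 was under 0.3 CPM and Cdx1 was not analysed here. The summed marker level was 7080 to 7180 CPM with palmitate and 7680 to 7770 CPM with vehicle. Krt8 (1414 to 1470 CPM with palmitate, 1677 to 1718 with vehicle) and Krt18 (1071 to 1087 with palmitate, 1429 to 1470 with vehicle) were lower with palmitate, and Krt19 (1357 to 1370 with palmitate, 1238 to 1267 with vehicle) was higher. Summed markers of other cell types were low: 4 of 7 fibroblast genes gave 0.976 to 1.10 CPM with palmitate and 1.3 to 2.05 CPM with vehicle. The 4 of 5 endothelial genes found gave 2.00 to 2.55 CPM with palmitate and 3.23 to 3.55 CPM with vehicle, and the 4 of 7 leukocyte genes gave 0.528 to 0.671 CPM with palmitate and 0.910 to 1.21 CPM with vehicle. Pdgfra, Dcn and Lyz2 were at 0 in every vehicle library and at only 0.044 to 0.132 CPM in the palmitate libraries. Col1a1 and Ptprc, also low but more abundant, went the other way. Col1a1 had 0.67 to 0.75 CPM with palmitate and 1.29 to 1.68 CPM with vehicle. Ptprc had 0.22 to 0.31 CPM with palmitate and 0.68 to 0.95 CPM with vehicle. The part of these markers in the results was not tested. In bulk RNA, fewer cells of a type and less RNA per cell cannot be told apart.

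The stretch just before the start site is shown for both lactate carriers and for Slc2a1, since the lactate carriers were higher with palmitate and Slc2a1 lower, and Slc16a3 and Slc2a1 are both known hypoxia targets. Promoter sequences are from RefSeq on GRCm38.p6 (the authors counted on mm39), and 4 of the 5 genes matched that table. Each run is the 241 bases that end 10 bases before the RefSeq start site, 5′ to 3′ on the gene's strand, and capitals mark the core of the hypoxia response element, ACGTG or GCGTG, on either strand.
Slc16a3: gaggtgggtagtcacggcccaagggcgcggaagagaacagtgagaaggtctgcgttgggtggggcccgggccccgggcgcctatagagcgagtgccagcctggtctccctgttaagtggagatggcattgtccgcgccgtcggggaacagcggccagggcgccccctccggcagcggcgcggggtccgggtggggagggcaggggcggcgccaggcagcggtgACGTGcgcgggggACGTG
Slc16a1: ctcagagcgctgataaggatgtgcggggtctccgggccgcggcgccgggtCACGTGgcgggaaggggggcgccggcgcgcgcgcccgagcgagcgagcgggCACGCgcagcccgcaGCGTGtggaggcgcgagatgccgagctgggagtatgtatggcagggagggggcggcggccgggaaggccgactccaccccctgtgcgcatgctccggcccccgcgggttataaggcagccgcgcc
Slc2a1: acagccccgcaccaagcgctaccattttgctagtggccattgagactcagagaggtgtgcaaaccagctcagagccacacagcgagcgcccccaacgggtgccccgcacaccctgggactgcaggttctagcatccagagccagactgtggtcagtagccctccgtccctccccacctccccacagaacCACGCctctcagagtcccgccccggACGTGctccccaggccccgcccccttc

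In the GRCm38 annotation Slc16a3 spans chr11:120948480-120960868, Slc16a1 chr3:104638668-104658462, Slc2a1 chr4:119108711-119137983 and Bsg chr10:79704491-79711969 on the plus strand, and Slc2a8 chr2:32972990-32982083 on the minus strand. The printed runs lie at chr11:120948817-120949057, chr3:104638414-104638654 and chr4:119108495-119108735, all on the plus strand. Start sites differ between RefSeq and the GENCODE annotation behind the gene spans: the Slc16a3 run lies within that gene's span, and the Slc2a1 span begins within its run. In windows of 300 bases that also take in the first 50 of the transcript, the core occurred 2 times for Slc16a3, 5 times for Slc16a1, 2 times for Slc2a1 and 1 time for Slc2a8. Both Slc16a3 matches are ACGTG on the gene's strand, with their first bases 27 and 14 bases before the start site. Slc2a1 holds ACGTG 36 bases before it and GCGTG on the other strand. For Slc16a1, 2 of the matches overlap on opposite strands within one CACGTG, the E-box bound by Myc and ChREBP-type factors, and another lies 20 bases past the start site, outside the printed run. At least 1 core match was found in 62.7% of the first promoters of 10319 tested genes and in 43.8% of all 32851 promoters in the table, and CACGTG in 10.2% and 7.15%. The core letters are thus common, and a match is no evidence of binding.

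Slc16a3 (ENSMUSG00000025161.17), the MCT4 gene, had 117, 112 and 110 CPM in the palmitate libraries and 57.2, 55.1 and 57.3 CPM in the vehicle libraries. Every palmitate library lay far above every vehicle library, and the nearest pair was 0.94 apart on the log2 scale. The means were 113 ± 3.50 CPM with palmitate and 56.5 ± 1.21 CPM with vehicle (SD, n = 3 libraries each), a log2 fold change of 1.00 with an SE of 0.031. The size of that change exceeded that of 95.5% of the 14987 tested genes, and 1.69% of them had a more positive fold change. The spread between libraries was 3.10% of the mean with palmitate and 2.15% with vehicle, where counting alone would give 1.98% and 2.91%.

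Slc16a1 (ENSMUSG00000032902.2), the MCT1 gene, had 235, 239 and 235 CPM in the palmitate libraries and 200.1, 208 and 206 CPM in the vehicle libraries. The groups did not overlap, but the gap between the nearest libraries was 0.18 on the log2 scale. Its mean was 236 ± 1.89 CPM with palmitate and 205 ± 4.13 CPM with vehicle (SD, n = 3 libraries each), a log2 fold change of 0.21 (SE 0.021) or 15.4% more. Both proton-coupled lactate carriers were therefore higher with palmitate, by unequal amounts.

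Slc2a1 (ENSMUSG00000028645.12), the GLUT1 gene, had 113, 111 and 115 CPM in the palmitate libraries and 128, 131 and 129 CPM in the vehicle libraries. All palmitate libraries were below all vehicle libraries, with a gap of 0.15 on the log2 scale. Its mean was 113 ± 2.29 CPM with palmitate and 129 ± 1.84 CPM with vehicle (SD, n = 3 libraries each), a log2 fold change of -0.19 (SE 0.026). In the earlier annotation an antisense gene, Gm12868, shares 105 exonic bases with Slc2a1, and it held at most 1 count in any palmitate library and 0 in each vehicle library. The library kit marked strand, and no source used here says if the counting did.

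Slc2a8 (ENSMUSG00000026791.15), the GLUT8 gene, was the scarcest of the 5. Its libraries held 7.47, 7.14 and 6.65 CPM with palmitate and 6.85, 7.73 and 7.52 CPM with vehicle. The groups overlapped, and the log2 fold change of -0.06 was smaller than its SE of 0.095. With 151 to 167 counts per palmitate library and 130 to 170 per vehicle library, the spread between libraries was 5.84% with palmitate and 6.29% with vehicle, below the 7.91% and 8.05% that counting alone would give. A difference as small as that of Bsg was not detectable for Slc2a8 at this depth.

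Bsg (ENSMUSG00000023175.16), the chaperone gene, was the most abundant. It had 551, 542 and 531 CPM in the palmitate libraries and 578, 573 and 579 CPM in the vehicle libraries. The groups did not overlap, with a gap of 0.06 on the log2 scale, and the means were 542 ± 10.4 CPM with palmitate and 577 ± 3.31 CPM with vehicle (SD, n = 3 libraries each). Its log2 fold change was -0.09 (SE 0.017), so the message of the escort was slightly lower where those of both its MCT clients were higher. Over the whole set, 4 of 5 members were called at an adjusted p under 0.05 in the fit across all genes, 2 higher and 2 lower, where 52.8% of tested genes were called (27.4% higher and 25.4% lower). The groups did not overlap for 4 members and for 57.8% of tested genes. The members were chosen from this contrast, so nothing is read from these counts. The authors' deposited table gives log2 fold changes of 1.00 for Slc16a3, 0.21 for Slc16a1, -0.19 for Slc2a1, -0.06 for Slc2a8 and -0.09 for Bsg. None of the 5 symbols is in the 93 metabolic gene sets that the authors deposited.

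**Figure D1:**
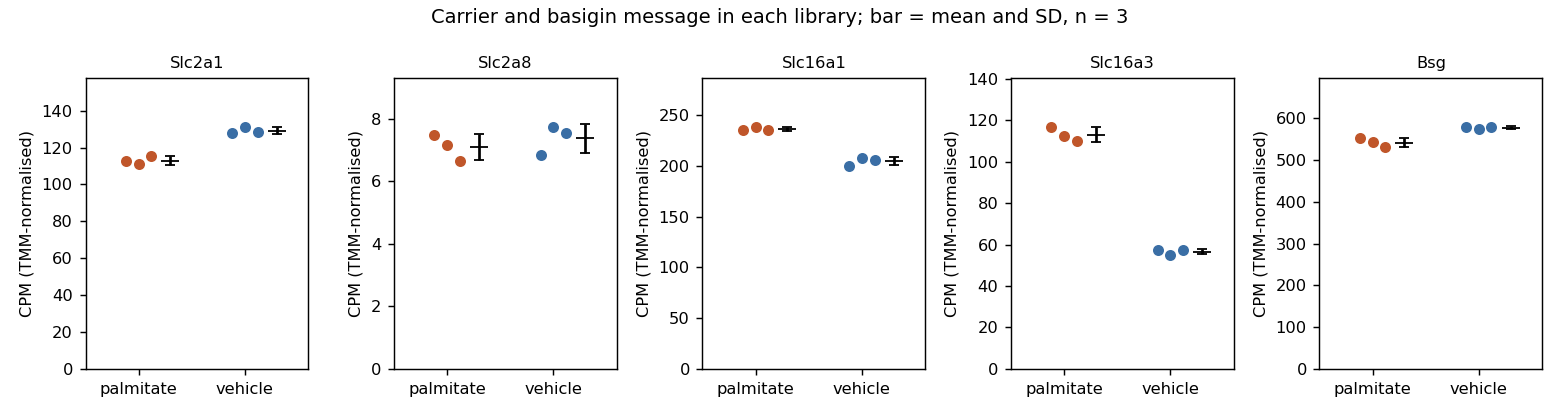
TMM-normalised CPM of the 5 genes in each library (points; palmitate left, vehicle right), with the mean and SD of 3 libraries beside them and axes from 0. The Slc16a3 points are 110 to 117 CPM with palmitate and 55.1 to 57.3 CPM with vehicle, while the Slc2a8 points overlap.

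Count ratios within a library need no normalisation and show how the balance between the members differed between the groups; they are not corrected for length and do not compare the level of one gene with that of another. Per Slc16a1 count there were 0.496, 0.471 and 0.468 Slc16a3 counts in the palmitate libraries, against 0.286, 0.265 and 0.278 in the vehicle libraries, so MCT4 message was a larger part of the lactate carrier pool in each palmitate library. Per count of the MCT pair there were 1.57, 1.55 and 1.54 Bsg counts with palmitate, against 2.25, 2.18 and 2.20 with vehicle. This ratio was lower in every palmitate library than in any vehicle library. There were 0.963, 0.985 and 1.05 Slc2a1 counts per Slc16a3 count with palmitate, against 2.23, 2.38 and 2.24 with vehicle, with no overlap between the groups. Per 100 Slc2a1 counts there were 6.28 ± 0.460 Slc2a8 counts with palmitate and 5.70 ± 0.296 with vehicle (SD, n = 3 libraries each), a difference of about the size of the spread between libraries. Relative to Ldha, which encodes the lactate dehydrogenase subunit that favours lactate formation, Slc16a3 stood at 0.135 ± 0.00272 counts per Ldha count with palmitate and 0.0812 ± 0.00120 with vehicle (SD, n = 3 libraries each).

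**Figure D2:**
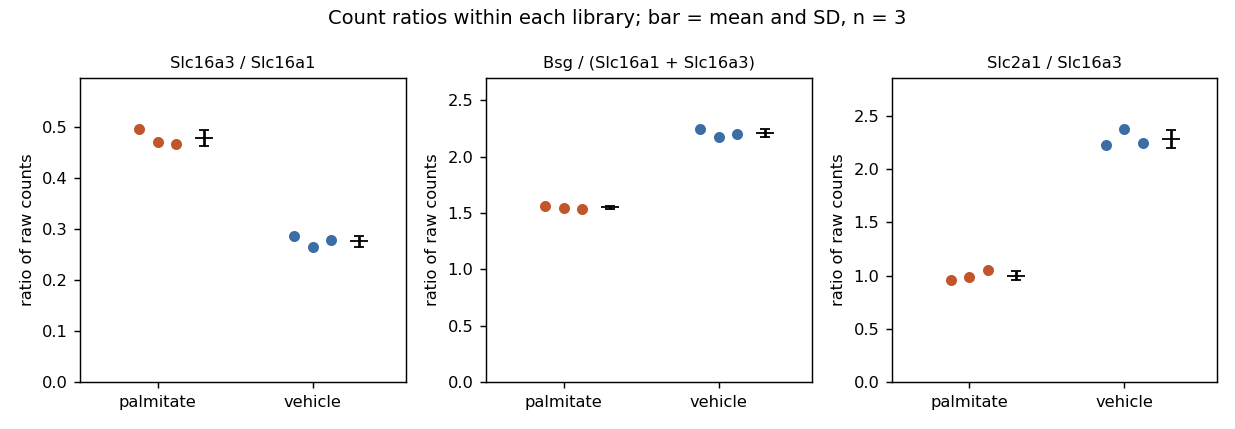
Ratios of raw counts within each library (points; palmitate left, vehicle right), with the mean and SD of 3 libraries beside them and axes from 0. With palmitate the Slc16a3 to Slc16a1 ratio is higher and the other ratios are lower, with no overlap between groups in the 3 panels.

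Levels can be set against each other between genes only per length, here as counts per kilobase of transcript scaled to the same total in each library, with the median length of a gene's transcripts in the earlier annotation. On this scale the length-scaled levels with palmitate were 565 ± 10.7 for Bsg, 182 ± 3.71 for Slc2a1, 131 ± 4.02 for Slc16a3, 60.2 ± 0.486 for Slc16a1 and 7.69 ± 0.448 for Slc2a8 (SD, n = 3 libraries each). With vehicle they were 610.3 ± 3.02 for Bsg, 212 ± 3.22 for Slc2a1, 66.3 ± 1.37 for Slc16a3, 52.9 ± 1.11 for Slc16a1 and 8.11 ± 0.517 for Slc2a8 (SD, n = 3 libraries each). Neighbours in that order differed by more than their spread in both groups. The place of the MCT genes depends on the length used, because the transcripts annotated for Slc16a3 are mostly short (median 975 bases, longest 4335) and Slc16a1 has 1 transcript of 4426. With the longest transcript the length-scaled level was 74.0 ± 2.28 for Slc16a3 and 151 ± 1.28 for Slc16a1 with palmitate. With vehicle it was 37.6 ± 0.781 for Slc16a3 and 133 ± 2.80 for Slc16a1 (SD, n = 3 libraries each), so their order turned round in both groups. With the longest transcript Slc2a1 was at 98.2 ± 1.96 with palmitate and 114 ± 1.72 with vehicle (SD, n = 3 libraries each), below Slc16a1. Bsg stayed first and Slc2a8 last on both lengths. In vehicle spheroids the length-scaled level of Bsg exceeded that of 98.5% of tested genes with a length, and that of Slc2a8 exceeded 34.6%.

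Within the Slc16a family, of which 11 genes were in the table, Slc16a3 made up 28.9%, 28.6% and 28.5% of the summed length-scaled counts in the palmitate libraries and 16.4%, 15.6% and 16.1% in the vehicle libraries. Slc16a1 held 13.2 ± 0.328% with palmitate and 12.8 ± 0.154% with vehicle (SD, n = 3 libraries each). With the longest transcript, Slc16a3 held 22.0 ± 0.368% with palmitate and 12.8 ± 0.356% with vehicle (SD, n = 3 libraries each). Slc16a1 then held the highest share, at 45.1 ± 0.706% with palmitate and 45.2 ± 0.475% with vehicle (SD, n = 3 libraries each). Within the 8 Slc2a genes in the table, Slc2a1 held 90.6 ± 0.547% with palmitate and 91.5 ± 0.351% with vehicle, and Slc2a8 held 3.83 ± 0.263% with palmitate and 3.51 ± 0.170% with vehicle (SD, n = 3 libraries each). With the longest transcript, Slc2a1 held 83.0 ± 1.07% with palmitate and 84.7 ± 0.111% with vehicle (SD, n = 3 libraries each). Slc2a8 then held 5.45 ± 0.342% with palmitate and 5.05 ± 0.2565% with vehicle (SD, n = 3 libraries each).

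**Figure D3:**
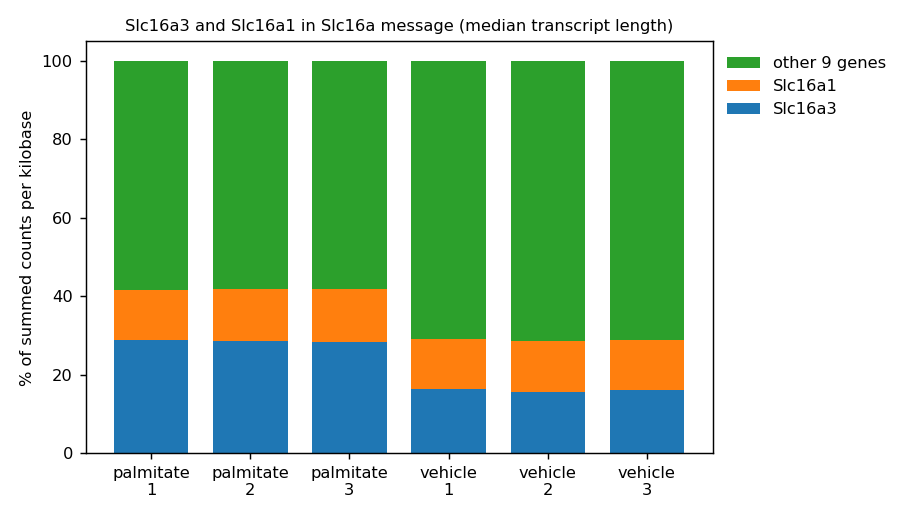
Share of Slc16a3, of Slc16a1 and of the other 9 genes together in the summed counts per kilobase of the 11 Slc16a genes, in percent, for each palmitate library (left) and each vehicle library (right), with median transcript lengths. The Slc16a3 part is 28.5 to 28.9% with palmitate and 15.6 to 16.4% with vehicle, and the Slc16a1 part is of like size in both groups.

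Other lactate and monocarboxylate carriers were called in both directions. Of 16 genes listed as other monocarboxylate carriers or escorts, 11 were in the table and 7 tested, of which 2 rose, 3 fell and 2 missed the threshold (edgeR quasi-likelihood test, two-sided, adjusted over all 14987 tested genes), a called share of 71.4% beside 52.8% of all tested genes (27.4% higher and 25.4% lower). Their median log2 fold change was -0.15, beside 0.00068 for all tested genes. Slc16a13 rose (log2 fold change 0.39, edgeR adjusted p = 1.68e-05), and so did Slc16a6 (0.21, edgeR adjusted p = 1.21e-05), which exports ketone bodies from liver in zebrafish. Slc16a10, a carrier of aromatic amino acids, fell (-0.15, edgeR adjusted p = 0.00423). Nptn, the gene of neuroplastin, a relative of basigin that can also escort MCTs, fell to 190.0 ± 5.67 CPM with palmitate, against 218 ± 5.26 CPM with vehicle (SD over 3 libraries a group; log2 fold change -0.20, edgeR adjusted p = 6.61e-13). The third escort gene, Emb (embigin), held at most 2 counts in a palmitate library and 3 in a vehicle library and was not tested. Slc16a5 had a log2 fold change of -0.35 (edgeR adjusted p = 0.0517) and Slc16a11 of 0.26 (edgeR adjusted p = 0.601).

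Of 20 other glucose carriers listed, 13 were in the table and 6 tested, of which 1 rose, 1 fell and 4 missed the threshold, a called share of 33.3% beside 52.8% of all tested genes, with a median log2 fold change of 0.0058. The insulin-responsive carrier gene Slc2a4 had 3.56 ± 0.297 CPM with palmitate and 3.74 ± 0.581 CPM with vehicle, and Slc2a6, a lysosomal carrier, had 9.26 ± 0.655 CPM with palmitate and 8.77 ± 0.391 CPM with vehicle (SD, n = 3 libraries each). Slc2a9, known for urate transport, had 18, 13 and 11 counts with palmitate and 5, 8 and 9 with vehicle (edgeR adjusted p = 0.0501). Slc50a1, of the SWEET family, had 41.6 ± 1.86 CPM with palmitate and 43.7 ± 0.753 CPM with vehicle (SD over 3 libraries a group), a log2 fold change of -0.07 (edgeR adjusted p = 0.146). Slc45a4, of a family of proton-coupled sugar carriers, fell to 38.3 ± 0.394 CPM with palmitate, against 41.9 ± 1.02 CPM with vehicle (SD over 3 libraries a group; log2 fold change -0.13, edgeR adjusted p = 0.00544), and its relative Slc45a3 was called higher (0.22, edgeR adjusted p = 0.0473), a call lost in all but 1 of the 12 alternatives tried. Without vehicle replicate 1, or without vehicle replicate 3, 1 of these genes was called. Slc2a2, Slc2a5 and Slc2a10 held at most 6 counts in a palmitate library and 17 in a vehicle library. The sodium-coupled carrier Slc5a1 of intestinal glucose absorption held at most 1 count with palmitate and 4 with vehicle.

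**Figure D4:**
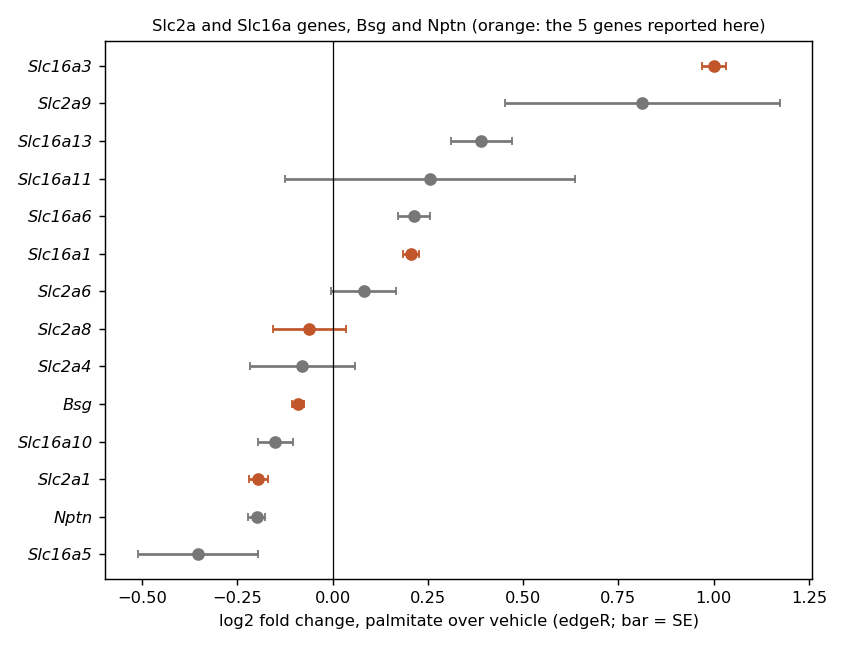
Log2 fold change of palmitate over vehicle with its SE for tested Slc2a and Slc16a genes, Bsg and Nptn, with the 5 genes reported here in orange. Slc16a3 stands at 1.00 and Slc2a1 at -0.19, and wide bars mark genes of few counts such as Slc2a9.

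Of 15 tested genes that control where glucose carriers sit, 7 rose, 1 fell and 7 missed the threshold, a called share of 53.3%, near the 52.8% of all tested genes, with a median log2 fold change of 0.05. Rab8a and Rab10, small GTPases that carry insulin-regulated vesicles to the surface, rose by 0.29 and 0.26 on the log2 scale (edgeR adjusted p = 9.93e-21 and 3.76e-17). Their GTPase-activating regulators parted, with Tbc1d1 higher (0.27, edgeR adjusted p = 1.85e-13) and Tbc1d4 lower (-0.27, edgeR adjusted p = 0.00101). Gipc1, whose protein binds the tail of GLUT1, rose by 0.20 (edgeR adjusted p = 4.33e-11). Txnip, an arrestin-domain protein that promotes removal of GLUT1 from the surface, rose to 136 ± 5.42 CPM with palmitate, against 123 ± 1.93 CPM with vehicle (SD over 3 libraries a group; log2 fold change 0.14, edgeR adjusted p = 1.99e-06). The endosomal sorting genes Snx27 and Vps26a had log2 fold changes of -0.01 (edgeR adjusted p = 0.777) and 0.0049 (edgeR adjusted p = 0.900), and Rab7 of -0.00047 (edgeR adjusted p = 0.988).

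Among transcription factors and sensors that act on carrier genes, Hif1a was higher and 8 of the 14 tested were lower. The others divided into 4 higher, Hif1a included, and 2 not past the threshold, a called share of 85.7% beside 52.8% of all tested genes, with a median log2 fold change of -0.08. Hif1a, the oxygen-regulated subunit of the hypoxia-inducible factor, rose to 479 ± 10.3 CPM with palmitate, against 349.6 ± 6.26 CPM with vehicle (SD over 3 libraries a group; log2 fold change 0.45, SE 0.018, edgeR adjusted p = 3.05e-38). Egln1, the prolyl hydroxylase that marks HIF proteins for breakdown and is itself a HIF target, rose by 0.30 (edgeR adjusted p = 1.47e-13). The other genes that rose were Max (0.24) and the low-level Epas1 (1.41, with 1.15 ± 0.0407 CPM with palmitate and 0.426 ± 0.120 CPM with vehicle; SD, n = 3 libraries each). Mxd1 and Mxd4, which compete with Myc for Max, fell by 0.47 and 0.20 on the log2 scale. The other lower genes were Arnt (-0.12), Egln2 (-0.09), Hif1an (-0.08), Mlxip (-0.15), Myc (-0.09) and Mnt (-0.08). The calls of Egln2, Hif1an, Myc and Mnt were lost under DESeq2. Mlx had a log2 fold change of 0.08 and Vhl of 0.03, neither past the threshold. Under DESeq2 8 of these genes were called, 4 higher, where 5899 of all genes were called against 7915 in the main fit. The 8 lower calls became 5 without palmitate replicate 3, without vehicle replicate 1, without vehicle replicate 2 and with no count filter.

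Of 24 tested genes of glucose phosphorylation and glycolysis, 14 rose, 3 fell and 7 missed the threshold, a called share of 70.8% beside 52.8% of all tested genes (27.4% higher and 25.4% lower), with a median log2 fold change of 0.14. Among the genes that rose (edgeR adjusted p under 0.05 for each), Pfkp, the platelet-type phosphofructokinase, was higher by 0.48, Aldoa by 0.22, Gapdh and Tpi1 by 0.20 each, and Eno2, the neuronal enolase, by 1.35 from a low level. Among the lower genes were Hk1 and Pfkm, with log2 fold changes of -0.13 and -0.16. Hk2, Pfkfb4 and Tigar had log2 fold changes of 0.04, -0.0038 and 0.07 and were not past the threshold. In the same libraries as the doubling of Slc16a3, Ldha rose to 835 ± 20.3 CPM with palmitate, against 696 ± 4.79 CPM with vehicle (SD over 3 libraries a group; log2 fold change 0.26, SE 0.016, edgeR adjusted p = 9.46e-26).

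For the fate of lactate and pyruvate, 8 of 17 tested genes rose, 3 fell and 6 missed the threshold. The called share was 64.7% beside 52.8% of all tested genes (27.4% higher and 25.4% lower), and the median log2 fold change was 0.10. Under DESeq2 7 were called, 5 higher, where 5899 of all genes were called against 7915 in the main fit. Besides Ldha, the pyruvate dehydrogenase genes Dld and Pdhx rose by 0.27 and 0.34 on the log2 scale, and Pdk4, a kinase that switches that complex off, by 0.70. Pcx, which turns pyruvate into oxaloacetate, fell to 23.2 ± 1.52 CPM with palmitate, against 33.3 ± 1.0 CPM with vehicle (SD over 3 libraries a group; log2 fold change -0.52, edgeR adjusted p = 1.35e-15). The other lower genes were Pdk1 (-0.16), a known HIF target, and Pdp1 (-0.14, edgeR adjusted p = 0.0307), whose call was lost under DESeq2 (adjusted p = 0.143), with no count filter, and without palmitate replicate 2 or any 1 vehicle replicate. The mitochondrial pyruvate carrier gene Mpc2 (0.03), Pdhb (0.0083) and Pdp2 (0.03) were not past the threshold.

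Partners of basigin did not share one direction. Of 11 tested, 5 were higher and 5 lower, a called share of 90.9% beside 52.8% of all tested genes, with a median log2 fold change of -0.03. Nptn is in this list too. Genes with more counts are more readily called, and the scarcest tested partner, Itga6, had 89.0 CPM with palmitate and 124 CPM with vehicle. The called share of a list, here and above, therefore depends on abundance as well as on response. Cd44, the hyaluronan receptor found in complexes with basigin, rose to 1206 ± 15.7 CPM with palmitate, against 857 ± 20.7 CPM with vehicle (SD over 3 libraries a group; log2 fold change 0.49, edgeR adjusted p = 1.59e-44). Ppia, which encodes cyclophilin A, an extracellular ligand of basigin, rose by 0.22, whereas Ppib, which encodes the related cyclophilin B, fell by 0.14. The integrin genes parted, with Itgb1 (0.09) and Itga3 (0.11) higher and Itga6 lower (-0.48). Slc3a2, the heavy chain of CD98, rose (0.11), its light chain gene Slc7a5 was not past the threshold (-0.03), and Mmp14 (-0.18) and Ncstn (-0.15) fell.

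Lactate leaves with a proton. A list of proton and bicarbonate transport genes and carbonic anhydrases, not all of which export acid, held 12 tested genes. Of these, 4 rose, 2 fell and 6 missed the threshold, a called share of 50.0% beside 52.8% of all tested genes. Their median log2 fold change was -0.0077. Slc9a3, the apical sodium-proton exchanger of intestinal epithelium, fell to 22.4 ± 1.35 CPM with palmitate, against 54.8 ± 3.77 CPM with vehicle (SD over 3 libraries a group; log2 fold change -1.29, SE 0.047, edgeR adjusted p = 1.60e-37). Its relative Slc9a2 rose by 1.53 from a low level. The bicarbonate carrier Slc4a4 rose by 0.35, the scaffold gene Slc9a3r1 by 0.19 and Slc4a3 by 0.26, while the anion exchanger Slc4a2 fell by 0.10. Slc4a7 (-0.0077) and Car2 (0.08) were not past the threshold.

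**Figure D5:**
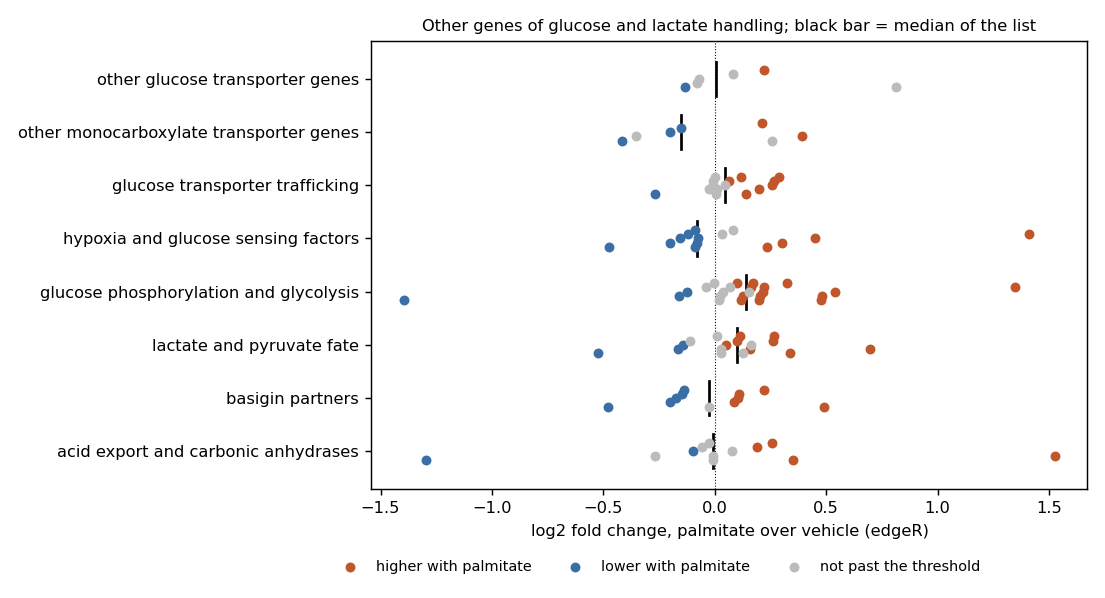
Log2 fold change of palmitate over vehicle for each tested gene of the 8 lists (points, orange higher, blue lower, grey not past the threshold), with the list median as a black bar. The glycolysis list has 14 genes higher and 3 lower, and the list medians lie between -0.15 and 0.14.

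Likeness to each member was measured as the root mean square difference between log2 CPM values of the 6 libraries, each gene centred on its own mean, among 13218 genes of at least 1 CPM outside the set. Nearest to Slc16a3 were Rgs11, a regulator of G protein signalling (difference 0.043, log2 fold change 0.97), and H2-K1, a class I histocompatibility gene (0.045, log2 fold change 1.02) whose relatives can share reads, and 7 genes lay within 0.05. Within the same distance lay 1148 genes of Slc16a1, 698 of Slc2a1, 77 of Slc2a8 and 1832 of Bsg. These numbers depend on how many genes had a fold change of that size and on the spread between libraries. That spread was 5.84% with palmitate and 6.29% with vehicle for Slc2a8, against 1.91% and 0.573% for Bsg. The numbers therefore do not compare the members. The nearest were Sdc1 and Nes for Slc16a1, Lix1l and Gab2 for Slc2a1, and Spint2 and Arpc5l for Bsg. For Slc2a8 they were an unnamed gene (ENSMUSG00000120319) and Zfp280b.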

How the data were processed

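The authors deposited raw counts per gene for 6 libraries. The submitters' processing notes name build mm39, DESeq2 1.34.0, HTSeq, FastQC 0.11.8 and STAR 2.6.1; per the labels' protocols, strand was marked with dUTP after poly(A) selection. The authors' deposited table gives log2 fold changes from DESeq2, with p-values and q-values and a ranking score, per the file headers; only its log2 fold changes were used. Members and gene lists were chosen with earlier results of these data known.

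The test was edgeR's quasi-likelihood F test (edgeR 4.0.16, R 4.3.3; robust glmQLFit, two-sided) after TMM normalisation and filterByExpr (minimum count 10), with Benjamini-Hochberg adjustment and a threshold of 0.05; 14987 genes were tested. The SE is the log2 fold change divided by the root of the F statistic. The code was also run on simulated data in which far fewer genes changed than were called here, so that run does not judge these calls. Lengths came from GENCODE vM21 for 96.4% of tested genes. Named list genes were the 5 called with the smallest p and the 3 most abundant not called. Others that complete a count of 5 or fewer, or the lower transcription factors and sensors, were chosen after their values were seen. Every library was kept as a separate sample. The chi-square between libraries of a group over its degrees of freedom was 1.20 to 1.38, slightly above counting noise alone. It does not show that the samples were grown separately. Alternatives were other normalisations, no count filter, DESeq2 1.42.0, limma-voom (limma 3.58.1), the replicate number as a block, other lengths, and leaving out each library. Figures used matplotlib 3.10.9. Some list genes that the naming rule covers are not reported here.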

Additional observations from a re-analysis of the deposited data

How the results depend on the processing

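The log2 fold changes of the 5 members kept their sign under every alternative run. Leaving out 1 library at a time, they ranged from 0.98 to 1.02 for Slc16a3, 0.19 to 0.22 for Slc16a1, -0.21 to -0.18 for Slc2a1, -0.10 to -0.07 for Bsg and -0.11 to -0.01 for Slc2a8, and all called genes numbered 7260 to 7406. DESeq2 called 5899 genes. Of other glucose carriers, 1 was called with median-of-ratios size factors, with library totals alone, with DESeq2 and with the replicate block, and 1 to 3 when 1 library was left out (1 without vehicle replicate 1 or vehicle replicate 3). Of lactate and pyruvate genes, 7 were called with DESeq2 against 11. The share difference of Slc16a3, 12.6 percentage points (12.4 to 12.8 without single libraries), was 9.30 with the longest transcript and 9.38 with no length scaling; that of Slc16a1, 0.41, was -0.0704 and -0.0759, and that of Slc2a1, -0.83, was -1.70 with the longest transcript. These follow from the lengths used. Of 105 other list genes, 15 changed their side of the threshold under at least 1 alternative and no called gene changed sign; some uncalled genes did, such as Slc2a4 (-0.18 to 0.04 without single libraries). No pairing of libraries by replicate number was seen: correlations of same-numbered deviations were -0.0045, 0.0085 and 0.0072, and with the replicate block 7933 genes were called. Spread within a group was mostly counting noise, so these correlations cannot exclude pairing. Depth limits Slc2a8 and the untested low carriers.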
